A study of Homo sapiens with 8 samples.

Results

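The genes of the centromere, the kinetochore and the spindle checkpoint were examined in LX-2 cells treated or not with an inhibitor of O-GlcNAc transferase (OGT). The 39 genes were chosen by name, with earlier results of these data known. All 39 were found among the 16796 genes of the count files. LX-2 is an established human hepatic stellate cell line. The control group (without OSMI-1) and the OGTi group (50 µM OSMI-1) were each harvested after 24 h. Both grew in DMEM with serum, and each comprised 4 libraries of polyadenylated RNA from independent experiments. All values come from a single cell line, one dose and one time. The comparison addressed how blocking OGT, the enzyme that attaches O-GlcNAc to intracellular proteins, changes the transcriptome of liver myofibroblasts.

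The kinetochore is the protein structure that joins a chromosome to the spindle during cell division. It is built in layers on nucleosomes that contain CENP-A, a variant of histone H3, and on the constitutive centromere-associated network (CCAN) that binds them. The MIS12 complex connects this base to the NDC80 complex, which grips the microtubules, and the SKA complex strengthens that grip. Kinetochores without a microtubule start the spindle checkpoint, in which the MPS1 kinase (gene TTK), BUB and MAD proteins hold back the anaphase-promoting complex (APC/C). Many of these genes are known to be transcribed mainly late in the cell cycle, so their RNA level is commonly high in dividing cultures.

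The libraries held 24166756 to 28201215 counts. Values below are normalized counts, that is, counts divided by the size factor of the library, and each log2 fold change (log2 FC, OGTi over control) is given with its standard error (SE). Calls required a q, the DESeq2 p-value adjusted by Benjamini-Hochberg over all genes tested, of 0.05 or lower. Control replicate 3 stood apart on the first principal component of the 500 most variable genes, with a score of -20.4 against -16.1 to -15.5 for the other controls. Of the stellate cell markers, VIM reached at least 3085 CPM (counts scaled to the library total) in every library. COL1A1 lay between 3034 and 3323 CPM in control and between 1513 and 1893 CPM in OGTi libraries. ACTA2 lay between 9.57 and 33.3 CPM in control and between 4.70 and 9.35 CPM in OGTi libraries. DES, LRAT and GFAP stayed at or under 0.21 CPM. SOX9, a cholangiocyte marker, lay between 22.0 and 47.7 CPM over all libraries. PTPRC, a leukocyte marker, stayed at or under 0.41 CPM, whereas CD68 lay between 91.1 and 146 CPM in control and between 215 and 368 CPM in OGTi libraries, and its part in the results was not tested. Libraries of a group differed beyond counting error in all pairs, with chi-square values per degree of freedom between 8.38 and 34.7.

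Of the 39 genes, 22 were called lower (56.4%) and 5 were called higher (12.8%) in OGTi cells, while 12 were not called. Among the 14028 genes with a q, 24% were called lower and 22.7% higher. The median log2 FC of the 39 genes was -0.32, beside a median of 0.0048 over all genes tested. Within the pairs of same-numbered libraries the median of the 39 genes was -0.32, -0.18, -0.27 and -0.37 for replicates 1 to 4. All 27 called genes changed in the same direction in the 4 pairs. Most changes were small: 14 of the 27 called genes changed by under 1.5-fold, and 2 (CENPA and PMF1) fell at least 2-fold, which 4.48% of all genes tested did. All 4 OGTi libraries lay below all 4 control libraries for 19 of the 39 genes, and for 20.2% of all genes tested. The opposite order was seen for 4 of the 39 genes and for 19.8% of all genes. Without replicate 3, which holds the control library that stood apart, 22 genes were called lower and 3 higher. The number called higher was 4 without replicate 1, 2 without replicate 2 and 2 without replicate 4. Over all genes the number called higher fell too, from 3181 to 2723 without replicate 1 and to 2416 without replicate 2. Because RNA came from whole cultures, fewer cells in division and less of each transcript per cell cannot be told apart.

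**Figure D1:**
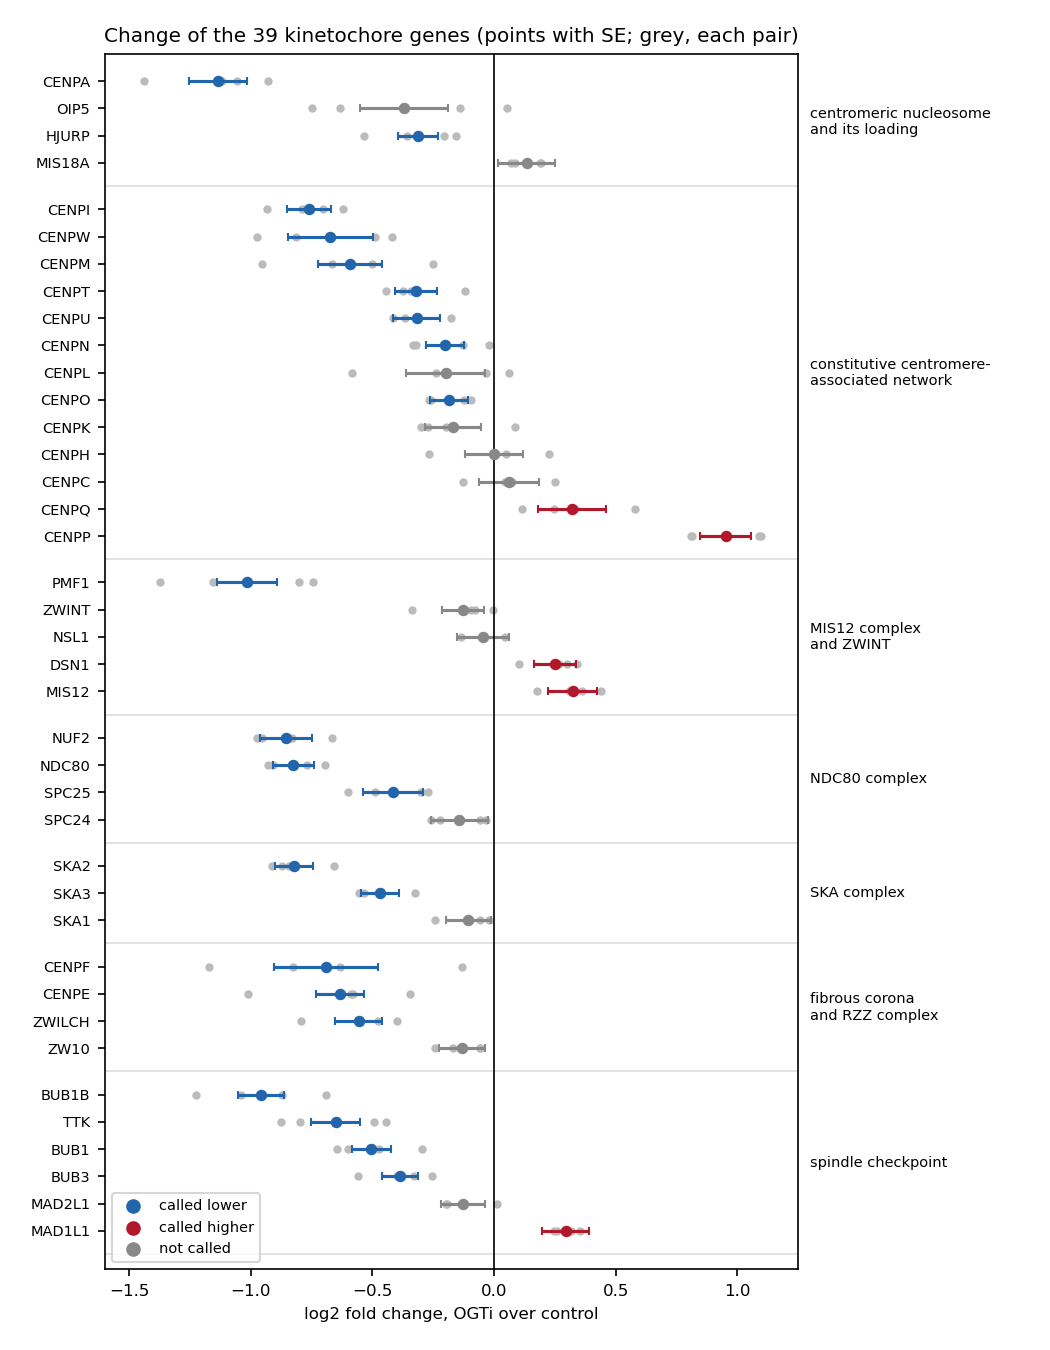
Log2 fold change of OGTi over control (x axis) for each of the 39 genes (rows), grouped by role. Coloured points give the DESeq2 estimate with its SE, blue for the 22 genes called lower, red for the 5 called higher and dark grey for the 12 not called, and light grey points give the 4 pairs; every group holds a gene that was not called, and CENPP lies farthest to the right at 0.95.

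The promoters of 10 genes are shown because these genes carry the contrast between falling, rising and uncalled genes. They are the gene with the lowest q in each of 7 role groups, together with the 3 genes of highest mean count among the other genes not called or called higher. Sequences are RefSeq promoters on GRCh38.p14, 250 bases before to 50 bases after the start site, in the direction of transcription. Capitals mark matches, on either strand, to the cell cycle genes homology region (CHR, searched as TTTGAA or TTCGAA), to the CCAAT box (CCAAT) and to the E2F site (searched as TTTCCCGC, TTTCGCGC, TTTGCCGC or TTTGGCGC). No match overlapped another, and the 2 CHR matches of NDC80 adjoin.
CENPA (chr2:26785806-26786105, plus strand): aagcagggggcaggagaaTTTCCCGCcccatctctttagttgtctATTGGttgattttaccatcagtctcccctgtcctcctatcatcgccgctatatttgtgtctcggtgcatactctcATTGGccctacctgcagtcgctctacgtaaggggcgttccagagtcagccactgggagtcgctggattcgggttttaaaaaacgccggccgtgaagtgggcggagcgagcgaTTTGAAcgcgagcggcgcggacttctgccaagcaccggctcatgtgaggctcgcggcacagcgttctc
PMF1 (chr1:156212757-156213056, plus strand): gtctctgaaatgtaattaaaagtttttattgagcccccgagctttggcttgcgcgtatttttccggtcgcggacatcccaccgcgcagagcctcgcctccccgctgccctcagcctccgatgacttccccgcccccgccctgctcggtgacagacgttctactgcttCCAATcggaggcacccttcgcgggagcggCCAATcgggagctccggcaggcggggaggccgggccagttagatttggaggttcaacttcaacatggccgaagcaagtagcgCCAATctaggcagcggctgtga
NDC80 (chr18:2571307-2571606, plus strand): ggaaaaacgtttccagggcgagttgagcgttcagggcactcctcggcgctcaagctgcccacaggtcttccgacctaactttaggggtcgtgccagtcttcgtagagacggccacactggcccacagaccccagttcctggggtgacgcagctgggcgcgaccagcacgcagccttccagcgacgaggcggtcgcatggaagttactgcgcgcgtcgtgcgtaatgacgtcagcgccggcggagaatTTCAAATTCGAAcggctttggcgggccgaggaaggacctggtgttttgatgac
SKA2 (chr17:59155137-59155436, minus strand): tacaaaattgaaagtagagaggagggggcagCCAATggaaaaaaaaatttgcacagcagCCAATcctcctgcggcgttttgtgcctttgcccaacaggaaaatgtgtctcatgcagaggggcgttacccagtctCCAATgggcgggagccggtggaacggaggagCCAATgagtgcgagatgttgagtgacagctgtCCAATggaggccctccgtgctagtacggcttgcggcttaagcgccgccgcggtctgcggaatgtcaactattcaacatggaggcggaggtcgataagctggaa
CENPE (chr4:103198294-103198593, minus strand): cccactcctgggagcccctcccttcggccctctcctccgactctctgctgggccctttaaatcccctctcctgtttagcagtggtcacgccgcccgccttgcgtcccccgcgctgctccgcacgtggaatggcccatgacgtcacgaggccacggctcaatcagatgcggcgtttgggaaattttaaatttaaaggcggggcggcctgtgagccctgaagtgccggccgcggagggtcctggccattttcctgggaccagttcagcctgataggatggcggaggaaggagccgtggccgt
BUB1B (chr15:40160819-40161118, plus strand): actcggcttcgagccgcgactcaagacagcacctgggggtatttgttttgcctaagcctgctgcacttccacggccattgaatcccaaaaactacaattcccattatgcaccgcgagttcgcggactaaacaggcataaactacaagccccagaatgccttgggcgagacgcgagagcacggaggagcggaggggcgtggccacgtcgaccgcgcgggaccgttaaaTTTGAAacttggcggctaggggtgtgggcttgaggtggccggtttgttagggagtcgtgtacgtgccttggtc
CENPP (chr9:92325218-92325517, plus strand): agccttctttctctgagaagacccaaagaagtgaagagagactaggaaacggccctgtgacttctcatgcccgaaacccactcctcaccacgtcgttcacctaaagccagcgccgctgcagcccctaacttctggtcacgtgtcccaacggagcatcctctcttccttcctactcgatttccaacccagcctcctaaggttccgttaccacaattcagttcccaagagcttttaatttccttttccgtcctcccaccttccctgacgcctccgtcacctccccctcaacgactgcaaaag
DSN1 (chr20:36773714-36774013, minus strand): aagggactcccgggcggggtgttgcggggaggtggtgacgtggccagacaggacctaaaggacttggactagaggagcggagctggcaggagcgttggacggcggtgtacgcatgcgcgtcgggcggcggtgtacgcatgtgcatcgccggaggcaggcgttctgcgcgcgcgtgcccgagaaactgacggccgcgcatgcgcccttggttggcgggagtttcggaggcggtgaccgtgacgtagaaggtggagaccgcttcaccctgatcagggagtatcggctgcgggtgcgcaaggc
ZWINT (chr10:56361210-56361509, minus strand): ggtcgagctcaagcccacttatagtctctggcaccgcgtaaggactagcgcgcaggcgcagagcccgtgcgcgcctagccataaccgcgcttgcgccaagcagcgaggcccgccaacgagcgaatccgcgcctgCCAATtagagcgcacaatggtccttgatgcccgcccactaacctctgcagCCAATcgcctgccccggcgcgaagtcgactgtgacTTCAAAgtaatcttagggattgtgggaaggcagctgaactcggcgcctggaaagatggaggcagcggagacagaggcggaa
MAD2L1 (chr4:120066799-120067098, minus strand): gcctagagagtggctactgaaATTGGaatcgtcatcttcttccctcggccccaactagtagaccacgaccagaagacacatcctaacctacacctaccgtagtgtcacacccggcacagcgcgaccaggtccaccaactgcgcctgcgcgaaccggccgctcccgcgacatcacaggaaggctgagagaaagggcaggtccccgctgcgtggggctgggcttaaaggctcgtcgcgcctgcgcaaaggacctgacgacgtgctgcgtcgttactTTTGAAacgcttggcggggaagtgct

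A promoter was matched for 33 of the 39 genes. The CHR letters were present in 18 of these 33 (54.5%), against 16.4% of the 35116 promoters of the same length. They were present in 12 of 19 genes called lower, in 6 of 9 genes not called and in 0 of 5 genes called higher. CCAAT was present in 20 of 33 (60.6%), against 34.6% of all promoters, and an E2F match in 4 of 33 (12.1%), against 3.31%. CCAAT was present in 11 of 19 genes called lower, in 7 of 9 not called and in 2 of 5 called higher. For the E2F match the counts were 2 of 19, 1 of 9 and 1 of 5. The raised genes with matches were MIS12 (CCAAT and E2F) and CENPQ (CCAAT), whose promoters are not printed above. The 5 genes called higher are too few to read a difference from these splits, including the absence of CHR letters. In the sequences above, CENPA, NDC80, BUB1B, ZWINT and MAD2L1 hold CHR letters within 31 bases of the start site. PMF1, SKA2, CENPE, CENPP and DSN1 hold none in this window. CHR letters were thus found both in genes that fell and in the uncalled ZWINT and MAD2L1. These counts describe letters in a window and were not tested.

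CENPA, which encodes the centromeric histone, showed the largest fall of the 39 genes. Its normalized count was 918, 1001, 792 and 804 in control replicates 1 to 4 and 338, 481, 415 and 371 in OGTi replicates 1 to 4. Every OGTi library was below every control library. The log2 FC was -1.14 ± 0.12 (q of 2.14e-20), so that the level fell by 54.5%. A 7.08% share of the annotated exon bases of CENPA belongs also to SLC35F6 on the same strand, although its counts were fractional in 0 of 8 libraries. HJURP, the chaperone that deposits CENP-A, had 3665, 4307, 3687 and 3901 in control libraries and 3175, 3865, 2875 and 2697 in OGTi libraries. The groups overlapped, since OGTi replicate 2 exceeded control replicates 1 and 3, although HJURP was lower within each pair (log2 FC of -0.31 ± 0.08, q of 0.000472). Its counts were fractional in 4 libraries.

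OIP5 and MIS18A, subunits of the Mis18 complex that prepares the centromere for CENP-A, were not called. OIP5 (Mis18β) had 267, 335, 216 and 212 in control libraries and 159, 216, 224 and 192 in OGTi libraries. It was lower in 3 of 4 pairs (log2 FC of -0.37 ± 0.18, q of 0.0814). Its q was 0.0308 in edgeR with the replicate block and 0.0398 without replicate 3. MIS18A had 527, 443, 447 and 417 in control libraries and 553, 471, 511 and 476 in OGTi libraries (0.13 ± 0.12, q of 0.365). OGTi values were thus slightly above their paired controls for MIS18A, within the spread of the groups.

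Of the 13 CCAN genes, 7 were called lower (53.8%), 2 higher (15.4%) and 4 not called, with a median log2 FC of -0.20. Among all genes tested, 24% were called lower and 22.7% higher, so the share of CCAN genes called higher was below that of all genes. CENPP and CENPI had the lowest q and moved in opposite directions. CENPP, a subunit of the CENP-O group, had 511, 566, 672 and 651 in control libraries and 1096, 1202, 1182 and 1140 in OGTi libraries. This was a 1.93-fold rise with no overlap between groups (log2 FC of 0.95 ± 0.10, q of 9.82e-19), and CENPP was the only one of the 5 raised genes that was called under all 10 alternative settings. CENPI, a subunit of the CENP-H group, had 1655, 1547, 1888 and 1602 in control libraries and 1016, 896, 988 and 1041 in OGTi libraries. It fell by 41.0% (-0.76 ± 0.09, q of 8.00e-16), again with no overlap.

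The second CCAN gene called higher was CENPQ, also of the CENP-O group. Its counts were 307, 332, 313 and 297 in control libraries and 364, 360, 394 and 445 in OGTi libraries (0.32 ± 0.14, q of 0.0484). The groups did not overlap, but the call was lost in 5 of 10 alternative settings, namely each of the 4 that leave out a replicate and the one with no count filter. Without replicate 4 the log2 FC was 0.23 (q of 0.319).

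The 4 uncalled CCAN genes had overlapping groups. CENPC, the scaffold that binds the CENP-A nucleosome, had 392, 510, 462 and 474 in control libraries and 466, 536, 423 and 489 in OGTi libraries (0.06 ± 0.12, q of 0.725). CENPH, a core subunit, had 641, 536, 642 and 530 in control libraries and 532, 554, 640 and 620 in OGTi libraries (-0.0011 ± 0.12, q of 0.996). Neither gene had the same direction in all 4 pairs. CENPK, a partner of CENPH, had 653, 657, 663 and 660 in control libraries and 530, 697, 550 and 576 in OGTi libraries (-0.17 ± 0.11, q of 0.228). CENPL, a partner of CENPN, had 303, 315, 276 and 249 in control libraries and 257, 210, 269 and 259 in OGTi libraries (-0.20 ± 0.16, q of 0.326). In both cases 3 of 4 pairs were lower, and without replicate 2 the estimate was -0.26 for CENPK and -0.07 for CENPL.

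The other 6 CCAN genes were called lower, and each was lower in all pairs, though the groups overlapped for CENPN and CENPU. The largest of these falls was that of CENPW (log2 FC of -0.67 ± 0.18), the histone-fold partner of CENPT, from 229 to 294 in control libraries to 123 to 184 in OGTi libraries, followed by CENPM of the CENP-H group (-0.59 ± 0.13), from 599 to 731 down to 377 to 504. CENPT itself had a log2 FC of -0.32 ± 0.08 (2082 to 2362 in control and 1636 to 1916 in OGTi libraries). CENPU, a subunit of the CENP-O group, had one of -0.32 ± 0.10 (899 to 1132 and 674 to 1001). CENPN, which reads the CENP-A nucleosome, and CENPO, a further subunit of the CENP-O group, had the smallest estimates among these, -0.20 ± 0.08 (q of 0.0262) and -0.19 ± 0.08 (q of 0.0357). CENPN shares 12.6% of its exon bases with a gene without a symbol on the same strand and had fractional counts in 2 libraries, so its counts are uncertain. The call of CENPN was lost without replicate 1 or replicate 4, and that of CENPO without replicate 2, 3 or 4. The CENP-O group thus held genes called in both directions, CENPP and CENPQ higher and CENPO and CENPU lower. Of these calls, those of CENPQ and CENPO were not kept in all alternative settings.

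**Figure D2:**
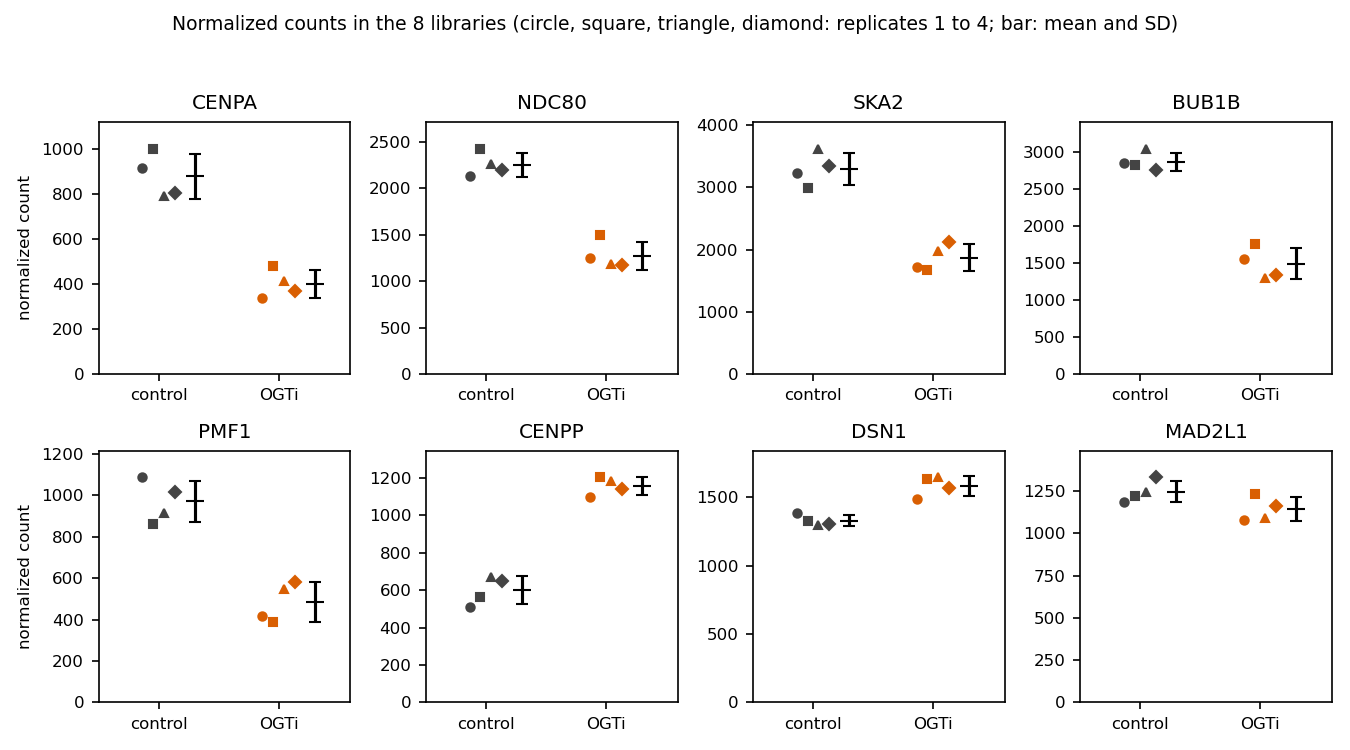
Normalized counts (y axis, from 0) of 8 genes in the control (dark grey) and OGTi (orange) libraries, one symbol per replicate, with the mean and SD of 4 libraries beside them. The OGTi values lie below all control values for CENPA, NDC80, SKA2, BUB1B and PMF1 and above them for CENPP and DSN1, whereas for MAD2L1 replicates 1, 3 and 4 of OGTi lie below all control values and replicate 2 lies among them.

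In the MIS12 complex, which links the CCAN to the outer kinetochore, subunits also moved in opposite directions. PMF1 had 1087, 863, 917 and 1017 in control libraries and 419, 388, 548 and 583 in OGTi libraries, with no overlap. Its level fell by 50.6% (log2 FC of -1.02 ± 0.12, q of 3.86e-15). Its counts were fractional in 8 of 8 libraries, and 23.3% of its annotated exon bases belong also to the readthrough gene PMF1-BGLAP, so the split of reads between both genes is uncertain. MIS12 had 681, 762, 714 and 696 in control libraries and 875, 944, 807 and 945 in OGTi libraries (0.32 ± 0.10, q of 0.00424). DSN1 had 1388, 1326, 1300 and 1304 in control libraries and 1490, 1634, 1646 and 1570 in OGTi libraries (0.25 ± 0.09, q of 0.00941). Both genes were thus higher in every OGTi library than in any control library. The call of MIS12 was lost without replicate 4 (q of 0.0756), and that of DSN1 without replicate 2, 3 or 4 (q of 0.0723 to 0.0919). NSL1, the remaining subunit, had 691, 630, 606 and 612 in control libraries and 669, 651, 552 and 592 in OGTi libraries (-0.04 ± 0.11, q of 0.768). ZWINT, which connects the outer kinetochore to the RZZ complex, had 2086, 2119, 1956 and 2095 in control libraries and 1978, 2114, 1833 and 1658 in OGTi libraries. It was lower in each pair without being called (-0.13 ± 0.09, q of 0.222), and the estimate was -0.06 without replicate 4 (q of 0.702), the pair with the lowest ratio (-0.34).

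The NDC80 complex, the main microtubule coupler, fell in 3 of its 4 subunits, beside 24% of all genes tested that were called lower. NDC80 had 2131, 2423, 2259 and 2192 in control libraries and 1248, 1496, 1187 and 1168 in OGTi libraries, and fell by 43.6% (log2 FC of -0.83 ± 0.08, q of 2.32e-21). NUF2, which pairs with NDC80 at the microtubule end, had 973, 938, 917 and 831 in control libraries and 502, 591, 466 and 468 in OGTi libraries (-0.86 ± 0.11, q of 3.09e-14). For both genes all OGTi libraries were below the lowest control. SPC24 and SPC25 form the inner end of the complex. SPC25 was called, at 505 to 525 in control and 345 to 433 in OGTi libraries (-0.42 ± 0.12, q of 0.00275), and SPC24 was not, with 621, 595, 465 and 461 in control libraries and 532, 572, 455 and 385 in OGTi libraries (-0.14 ± 0.12, q of 0.330). Over the 4 pairs the log2 ratio ranged from -0.93 to -0.70 for NDC80 and from -0.26 to -0.03 for SPC24, and the difference between the genes was not tested. Fractional counts in 8 libraries for SPC25 and in 5 for SPC24 show that reads were divided with other loci, and both are uncertain for that reason.

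In the SKA complex SKA2 had 3238, 2995, 3618 and 3346 in control libraries and 1718, 1669, 1976 and 2119 in OGTi libraries. It had the lowest q of the 39 genes and fell by 43.4% (log2 FC of -0.82 ± 0.08, q of 3.58e-24). SKA3 had 3016, 3021, 2996 and 2956 in control libraries and 2179, 2415, 2069 and 2012 in OGTi libraries (-0.47 ± 0.08, q of 1.13e-08). The groups did not overlap for either gene. SKA1, which carries the microtubule-binding domain, had 1200, 1111, 1033 and 1081 in control libraries and 1014, 1037, 1017 and 1037 in OGTi libraries (-0.11 ± 0.09, q of 0.359). Its groups overlapped, and its counts, fractional in 8 of 8 libraries, are uncertain.

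Among the genes of the fibrous corona and of the RZZ complex, which assemble on unattached kinetochores, 3 of 4 were called lower. The share of all genes tested that was called lower was 24%. CENPE, the kinesin that carries chromosomes to the spindle equator, had 2849, 3532, 3944 and 3213 in control libraries and 2242, 2361, 1954 and 2136 in OGTi libraries (log2 FC of -0.63 ± 0.10, q of 1.55e-09). ZWILCH, a subunit of RZZ, had 1439, 1435, 1294 and 1329 in control libraries and 831, 978, 930 and 1007 in OGTi libraries (-0.56 ± 0.10, q of 7.71e-08). No OGTi library of these genes reached the lowest control. ZW10, which also acts in membrane traffic outside mitosis, had 1020, 973, 1041 and 1140 in control libraries and 907, 936, 1001 and 964 in OGTi libraries (-0.13 ± 0.09, q of 0.255). CENPF, a large corona protein, had the largest SE of the 39 genes, with values from 5499 to 8715 in control libraries and from 3868 to 5013 in OGTi libraries. Its pair ratios ran from -1.17 in replicate 3 to -0.13 in replicate 1 (-0.69 ± 0.21, q of 0.00375). DESeq2 treated CENPF as an outlier in dispersion, and its call was lost without replicate 4 (-0.65, q of 0.0695).

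Of the 6 spindle checkpoint genes, 4 were called lower (66.7%), 1 higher (16.7%) and 1 was not called. Among all genes tested, 24% were called lower and 22.7% higher. BUB1B, which encodes the checkpoint protein BUBR1, had 2852, 2832, 3045 and 2759 in control libraries and 1559, 1754, 1301 and 1342 in OGTi libraries. It fell by 48.5% (log2 FC of -0.96 ± 0.09, q of 1.45e-22), with fractional counts in 7 libraries and 10.2% of its exon bases shared with BUB1B-PAK6 or PAK6, so that its counts are uncertain too. TTK, the kinase that starts the checkpoint signal, had 1464, 1602, 1809 and 1513 in control libraries and 1077, 1139, 984 and 871 in OGTi libraries (-0.65 ± 0.10, q of 6.55e-10). Neither gene had overlapping groups, and the same held for BUB1 (-0.50 ± 0.08, q of 3.22e-09), the kinase that recruits BUBR1, and for BUB3 (-0.39 ± 0.08, q of 1.66e-06), which binds both. BUB1 ranged from 3921 to 4242 in control and from 2630 to 3353 in OGTi libraries, and BUB3 from 4651 to 5395 and from 3155 to 4296.

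Neither MAD gene was called lower. MAD2L1, whose product MAD2 inhibits CDC20, had 1188, 1223, 1247 and 1330 in control libraries and 1081, 1234, 1090 and 1160 in OGTi libraries (-0.13 ± 0.09, q of 0.247). MAD1L1, the MAD2 receptor at the kinetochore, had 750, 863, 765 and 705 in control libraries and 959, 1074, 916 and 837 in OGTi libraries (0.29 ± 0.10, q of 0.00612). MAD1L1 was higher in each pair, but OGTi replicate 4 was below control replicate 2, and its call was lost without replicate 2 (q of 0.0591). A share of 43.2% of its annotated exon bases belongs also to a gene without a symbol on the same strand, so its level is uncertain, although its counts were fractional in 0 of 8 libraries.

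Levels were set side by side per kilobase of the canonical transcript in GENCODE 44, which need not be the isoform made in LX-2 cells. On this scale HJURP (1232 normalized counts per kilobase), SKA2 (1174) and ZWINT (1111) were highest in control cells, and NSL1 (48.4), CENPC (67.3) and CENPP (72.4) were lowest. In OGTi cells ZWINT (1021) and HJURP (999) led, and SKA2 stood at 666. CENPP stood at 139 and stayed among the least abundant of the 39 genes. Within the NDC80 complex, the control level was 1059 for NDC80, 466 for NUF2, 387 for SPC25 and 234 for SPC24, and in OGTi cells these were 599.6, 258, 291 and 212.

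**Figure D3:**
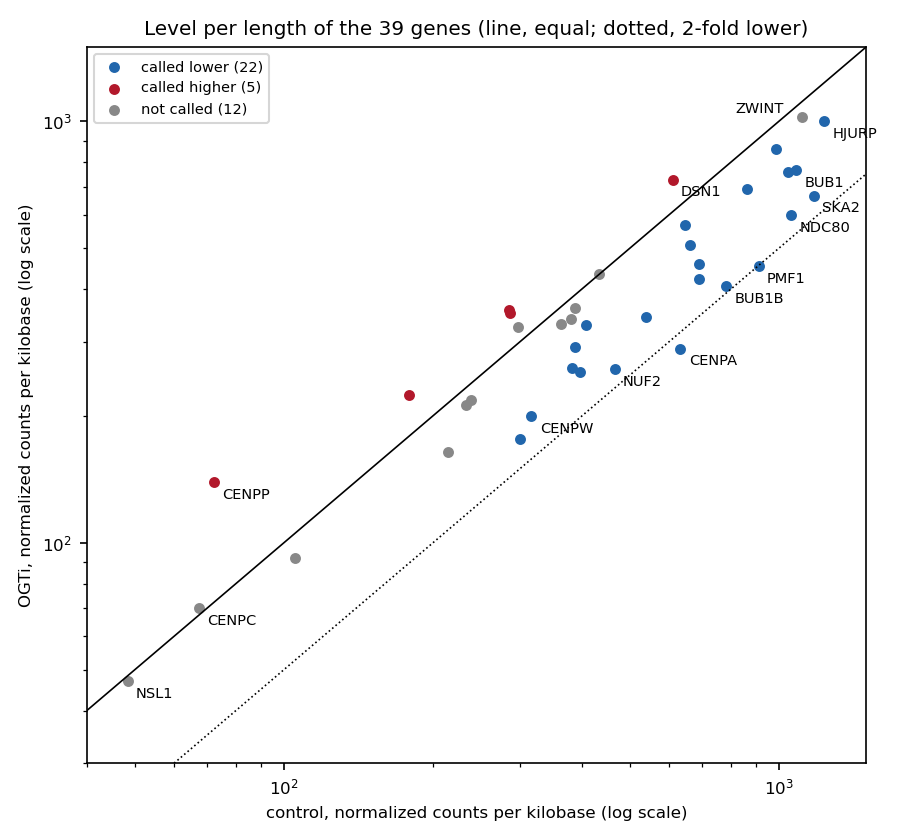
Mean level in OGTi (y axis) against control libraries (x axis), in normalized counts per kilobase on log scales, for the 39 genes (n = 4 libraries each), coloured by call. Points under the solid line were lower in OGTi cells, and CENPA and PMF1 are the called genes below the dotted line of a 2-fold fall.

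Other genes of the same processes were counted from lists of names, which were also chosen with earlier results of these data known. Of 25 further kinetochore and checkpoint genes, 15 were called lower (60%) and 2 higher (8%), with a median log2 FC of -0.34. The shares of all genes tested were 24% and 22.7%. The lowest q values were those of PLK1 (-1.24 ± 0.08), a kinase that acts at kinetochores, and SPDL1 (-0.98 ± 0.09), which brings dynein to them. ITGB3BP (0.33 ± 0.11), a CCAN subunit, and MAD2L1BP (0.34 ± 0.13), which helps to silence the checkpoint, were higher. The call of ITGB3BP was lost without replicate 2 or 4, and that of MAD2L1BP without replicate 1, 3 or 4. Of 15 genes for the APC/C, the target of the checkpoint, and for its activator FZR1, 4 were called lower and 2 higher, with a median of -0.05. ANAPC15, which helps to release checkpoint proteins from the APC/C, fell from 616 ± 31.5 to 184 ± 25.9 normalized counts (SD, n = 4 each; -1.75 ± 0.14, q of 1.98e-35). CDC27 fell (-0.39 ± 0.08), and ANAPC5 (0.25 ± 0.07) and CDC16 (0.32 ± 0.09) rose, although the call of ANAPC5 was lost without replicate 2. The share of APC/C genes called lower, 26.7%, was near that of all genes.

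Mitotic genes outside the 39 were called lower in 26 of 27 cases, with a median log2 FC of -0.84, and AURKA (-1.35 ± 0.08) and PRC1 (-1.16 ± 0.07) had the lowest q. Of 30 S phase genes 14 were called lower (46.7%) and 4 higher (13.3%), with a median of -0.10. Among all genes tested, 24% were called lower and 22.7% higher. MCM5 fell (-0.51 ± 0.07), and RFC5 (0.56 ± 0.08), GINS4 (0.46 ± 0.10), POLE (0.33 ± 0.08) and CDC6 (0.23 ± 0.08) rose, although the call of CDC6 was lost without replicate 2. The number of S phase genes called lower was 8 without replicate 1, 7 without replicate 2 and 6 without replicate 4, and that of APC/C genes was 2 without replicate 2, 3 or 4. Over all genes the number called lower fell too, from 3360 to 2967 without replicate 1 and to 2711 without replicate 2. A further list was built around the DREAM complex, B-MYB, FOXM1 and E2F factors, which are known to regulate late cell cycle genes. Among its 19 tested genes, 9 were called lower (47.4%) and 3 higher (15.8%). MYBL2 fell (-0.89 ± 0.09), and CDKN1A (1.91 ± 0.08) and E2F7 (0.40 ± 0.09) rose. The part of these cell cycle genes in the change of the 39 genes was not tested.

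**Figure D4:**
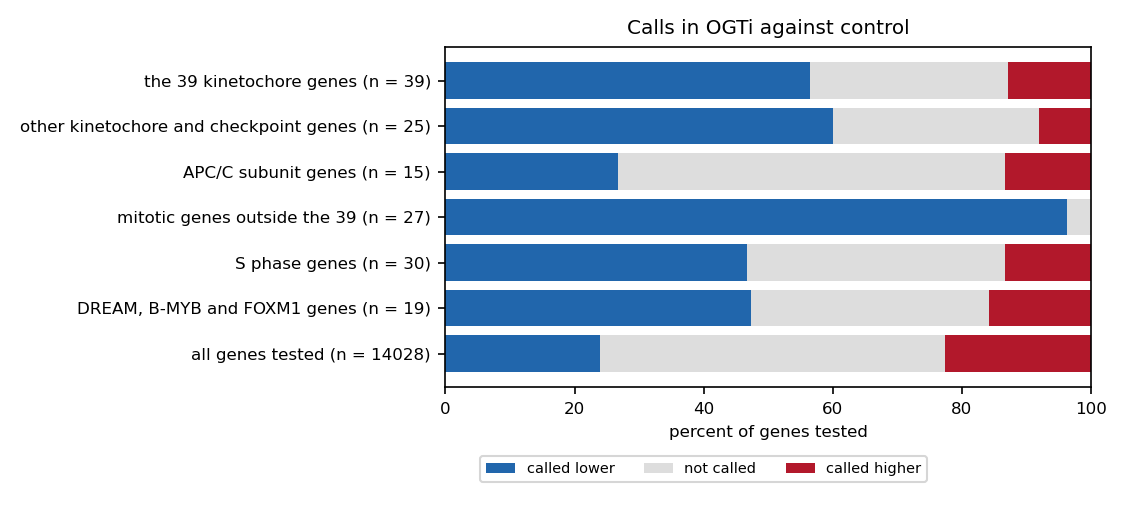
Percent of the tested genes of each list (x axis) called lower (blue), not called (grey) and called higher (red) in OGTi cells; n in each label is the number of genes. The 39 genes were called lower in 56.4% of cases, the mitotic genes outside them in 96.3%, and all genes tested in 24%.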

How the data were processed

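RNA was measured in 4 control and 4 OGTi libraries of LX-2 cells. The authors aligned paired, strand-specific reads to hg38 with Bowtie2 (2.3.5.1) and deposited RSEM (1.3.1) expected counts per gene, in which a read with several alignments is divided between genes. The counts are not scaled for depth, and fractional counts made up 12.9% to 16.3% of genes per library. A deposited table of the authors' own DESeq2 comparison, with fold changes and p-values, was not used.

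Expected counts were rounded, and genes with a total under 10 were left out. This left 14895 genes for DESeq2 1.42.0 in R 4.3.3 (Wald test, median-of-ratios size factors, replicate number as a block, independent filtering, no shrinkage, q of 0.05 or lower). Blocking on the replicate was taken from the study's methods, where samples of one replicate are paired. Deviations from the group mean correlated across 11702 genes at 0.379, 0.303, 0.138 and 0.269 for the pairs of replicates 1 to 4. Genes are no independent replicates here. Control replicate 3 correlated more with OGTi replicate 4 (0.272). The fits were tested on simulated data. With the dispersions of the real genes, both tools made more false calls than the threshold of 0.05 allows, edgeR more than DESeq2 in most simulated sets. Robust shrinkage, adopted for edgeR after an earlier simulation, did not remove its excess. The simulated sets held few changed genes and no effect of the replicate, unlike the real data. The size of the excess therefore need not hold for these data. Calls with q near 0.05 may still be less certain than q states.

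The 39 genes and the gene lists were chosen with earlier results of these data known. Values of all libraries are given, in each role group, for the 2 called genes with the lowest q and for every gene not called or called higher. From other lists, the 2 genes with the lowest q and those called higher are named, except for a gene that is not reported here. Gene positions and lengths came from GENCODE 44 (GRCh38), and the promoter windows from RefSeq. Alternatives were edgeR 4.0.16 with TMM factors, fits without the block, upper-quartile size factors, other count filters (none, or 10 counts in 4 libraries) and leaving out each replicate.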

Additional observations from a re-analysis of the deposited data

Results flagged for a closer look

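On the first principal component of the 500 most variable genes, which held 85.0% of their variance, control replicate 3 scored -20.4 and the other 3 controls scored -16.1 to -15.5. The gap was 0.868 of the range of the group, beyond the 95% limit of Dixon's test for 4 samples. Such a gap arises by chance in about 1 of 20 groups. None of the 78 groups formed by the 39 genes in both conditions had such a gap.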

How the results depend on the processing

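Over 10 alternative settings, 29 of the 39 genes kept their direction and their side of the threshold, namely 19 called lower, 1 called higher (CENPP) and 9 not called. The number called lower was 19 to 22 when a replicate was left out, and the number called higher was 2 to 4. Over all genes, 3360 were called lower and 3181 higher in the main fit. These numbers were 2967 and 2723 without replicate 1, and 2711 and 2416 without replicate 2. Without the replicate block 22 genes were called lower and 5 higher in DESeq2 as well as in edgeR, and with the block edgeR called 23 lower and 5 higher. The block changed no call of the 39 genes in DESeq2. No filter on low counts gave 22 and 4. The median log2 FC ranged from -0.37 to -0.28 when a replicate was left out. The number of S phase genes called lower was 6 to 12 and that of APC/C genes 2 to 3 when a replicate was left out, and the latter was 2 with upper-quartile size factors. Sign changes were seen for genes that were not called: CENPH was at 0.0092 with upper-quartile size factors, and leaving out a replicate gave -0.076 to 0.090 for CENPH and -0.0013 to 0.12 for CENPC. Among the other uncalled genes, estimates that moved by over 1.5-fold were those of OIP5 (-0.24) and SKA1 (-0.06) without replicate 1, CENPK (-0.26), CENPL (-0.07) and NSL1 (-0.07) without replicate 2, NSL1 (-0.02) without replicate 3 and ZWINT (-0.06) without replicate 4. These causes were not tested. With 4 libraries per group, a q above 0.05 does not show that a gene was unchanged, as the SE of the uncalled genes was 0.09 to 0.18.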
